A study of Canis lupus familiaris with 16 samples.

Results

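Toceranib-treated libraries of 3 cell lines of canine hepatocellular carcinoma (KU-cHCC-005, KU-cHCC-002 and KU-cHCC-004) were compared with all 4 libraries given the drug's vehicle, Dulbecco's phosphate-buffered saline (DPBS). These 7 libraries, of 16 in the series, were chosen by their treatment label, and the labelled lines were not paired. The lines are primary cultures from liver tumours of dogs, and each line and treatment had 1 RNA-seq library. Toceranib was given at 15 µM for 24 h to lines 002, 004 and 005, and DPBS for the same time to lines labelled 001, 002, 004 and 005. All groups shared 1 culture medium, which held serum and N-acetyl-L-cysteine. The toceranib library of KU-cHCC-001 was left out, because no DPBS library carries the transcripts of that line. Of 152 genes that mark KU-cHCC-001 in its DMSO and sorafenib libraries, 133 reached 10 CPM in its toceranib library, 2 did in DPBS 001 and at most 12 in any DPBS library. Libraries are called by treatment and line number below, for example Toceranib 002, which keeps the label even where the transcripts go against it.

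Toceranib is a small-molecule drug for dogs that inhibits receptor tyrosine kinases, among them KIT and the receptors for VEGF and PDGF. These receptors sit in the cell membrane and, when a ligand binds, signal through the ERK cascade and other routes to growth and survival genes. A pair of ligand-activated transcription factors recur in the results. The aryl hydrocarbon receptor binds planar aromatic molecules and switches on CYP1 family enzymes, which oxidise such molecules in liver. The liver X receptors bind oxidised sterols and switch on genes that export cholesterol or limit its uptake, while the SREBP factors act on genes that make it.

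The libraries held 12008366 counts (Toceranib 005) to 18987349 counts (Toceranib 004), and 14860 genes were tested. Epithelial markers were high throughout: 17 of 17 were tested, and the adhesion molecule EPCAM lay between 392 and 691 CPM (counts scaled to a common library size). Of 34 hepatocyte markers, 10 were tested. The liver factor HNF4A lay between 60.9 and 118 CPM, and albumin (ALB) stayed under 0.5 CPM in every library. PECAM1 of endothelium reached at most 0.166 CPM, PTPRC of leukocytes at most 0.0535 CPM, and CD3E of T cells had 0 counts.

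The 7 libraries did not group by treatment or by labelled line. DPBS 001 and DPBS 004 correlated at 0.996 with each other, across genes on log2(CPM + 0.5), and at 0.981 and 0.983 with Toceranib 002. DPBS 002 and DPBS 005 correlated at 0.996 with each other, and at 0.984 and 0.982 with Toceranib 005. Toceranib 004 reached at most 0.965 with any other library. The collagen gene COL1A1 lay at 105 CPM in Toceranib 005, 148 in DPBS 002 and 174 in DPBS 005. It lay at 16.1 CPM in Toceranib 004 and at 0.375 or less in Toceranib 002, DPBS 001 and DPBS 004. Lumican (LUM), another matrix gene of stromal cells, was at 0 in those last 3 libraries and at 21.9 to 25.4 CPM in Toceranib 005, DPBS 002 and DPBS 005. Thus the largest differences among the 7 libraries ran across the treatments, and the part of these stromal transcripts in the results was not tested.

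**Figure D1:**
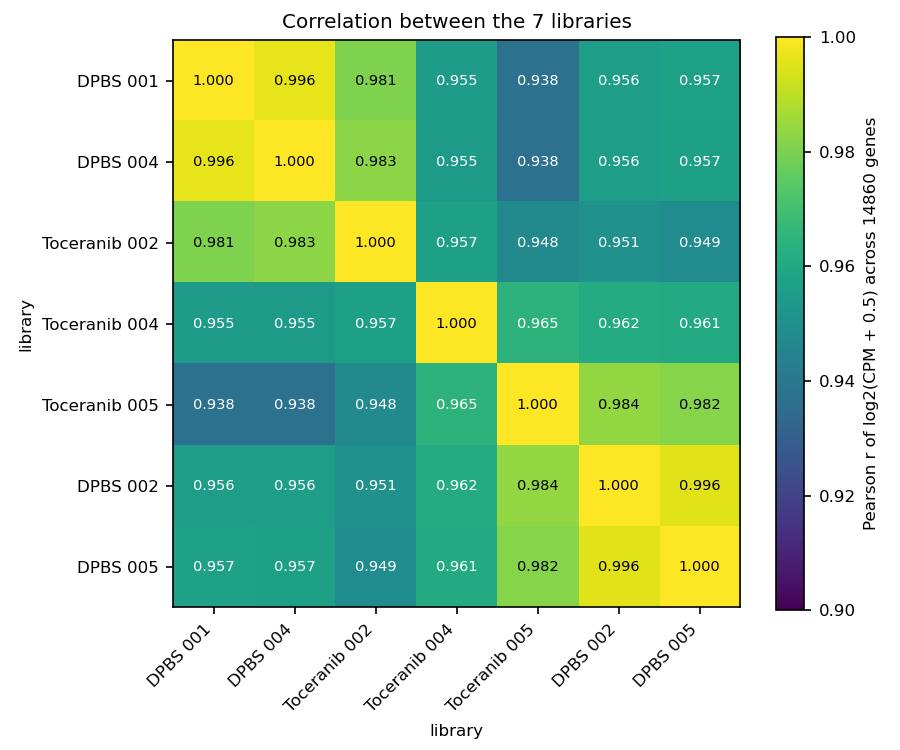
Pearson correlation of log2(CPM + 0.5) across 14860 genes for each pair of the 7 libraries, as coloured cells with the value printed. DPBS 001 and 004 (0.996) sit beside Toceranib 002, DPBS 002 and 005 (0.996) sit beside Toceranib 005, and Toceranib 004 is at most 0.965 with any library.

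Between toceranib and DPBS, 10 genes rose, 0.0673% of the 14860 tested, and 18 fell, 0.121% (edgeR quasi-likelihood test, adjusted p under 0.05). CYP1A1 rose most, followed by the ubiquitin ligase gene MYLIP and the transcription factor gene SNAI1. The linker histone gene H1-5, another ubiquitin ligase gene, HUWE1, and the RNA-binding protein gene QKI fell most. In bulk RNA, a change in the RNA of each cell and a change in the share of a kind of cell cannot be told apart. A looser count took genes whose 3 toceranib libraries all lay above, or all below, the 4 DPBS libraries: 1253 lay above, 8.43%, and 1464 below, 9.85%. Without Toceranib 002 these shares were 18.6% and 18.8%, without Toceranib 004 13.6% and 14.1%, and without Toceranib 005 12.6% and 12.2%. The shares with all 7 libraries are the background for the gene lists that follow, and the median log2 fold change over all tested genes was 0.03.

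The calls rested on how the 7 libraries were used. With the labelled line as a replicate block (6 libraries), edgeR called 0 genes, and 630 higher and 809 lower had an unadjusted p under 0.05. Line numbers did not pair the libraries, and the block leaves fewer residual degrees of freedom, so 0 calls there do not show that genes are unaffected. With each close DPBS pair summed into 1 library edgeR also called 0, with 477 and 583 at an unadjusted p under 0.05. DESeq2, on all 7 libraries, called 481 higher and 715 lower. Without any single one of Toceranib 004, Toceranib 005, DPBS 001, DPBS 002, DPBS 004 or DPBS 005, the 1 gene called was CYP1A1, whereas without Toceranib 002 the counts were 99 higher and 165 lower. All 28 genes kept their sign in each of the 17 alternatives. In all 28 the toceranib and DPBS libraries did not overlap, so dropping or summing libraries could hardly turn a sign.

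**Figure D2:**
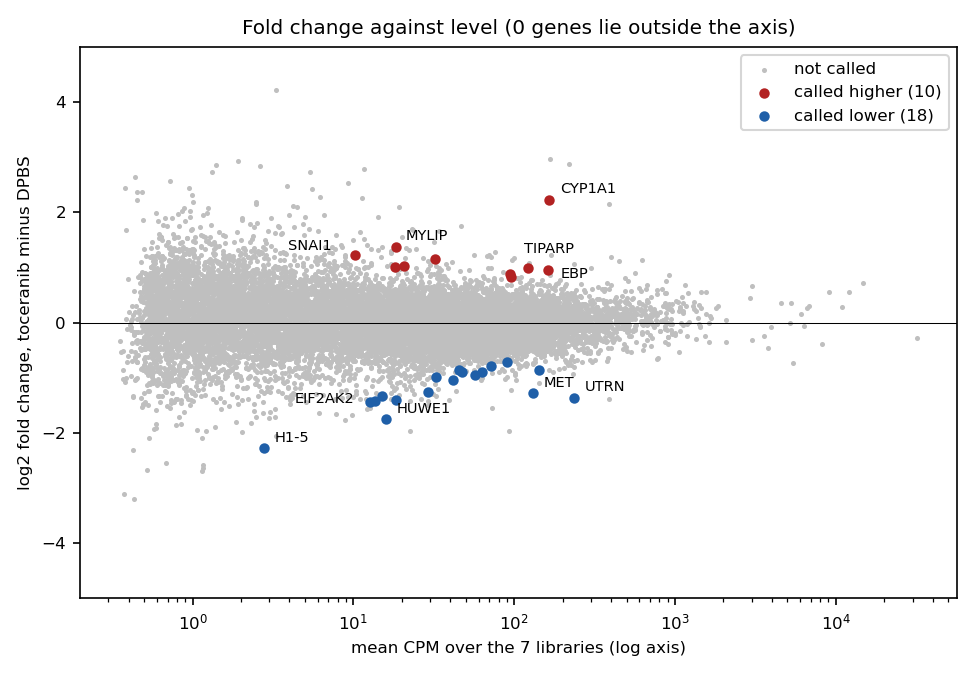
Log2 fold change of toceranib against DPBS (vertical axis) over the mean CPM of the 7 libraries (horizontal log axis), 1 point per tested gene, with the 10 genes called higher in red and the 18 called lower in blue. CYP1A1 stands at 2.23 and H1-5 at -2.28, and uncalled genes (grey) with folds as large lie mostly at low CPM.

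CYP1A1, the classical target of the aryl hydrocarbon receptor, had the smallest p of all tested genes. It lay at 327.5, 280.1 and 296.1 CPM in Toceranib 002, 004 and 005. In DPBS 001, 002, 004 and 005 it lay at 56.7, 71.9, 58.4 and 69.5 CPM. The groups were far apart, and lines as unlike as 002 and 005 reached nearly the same drug level. Its log2 fold change was 2.23 ± 0.13 (SE, adjusted p = 0.00234 by edgeR), and it was called in 11 of the 17 alternatives, with folds from 2.11 to 2.40. The block, whose line numbers did not pair the libraries, gave an adjusted p of 0.345. DMSO libraries of lines 002, 004 and 005, the vehicle of another drug, held 45.5, 74.6 and 100.1 CPM.

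TIPARP, a further target gene, which encodes an ADP-ribosyltransferase that restrains the receptor, rose by 0.99 ± 0.13 (adjusted p = 0.0464). It lay at 151, 195 and 168 CPM with toceranib and at 78.3, 92.4, 78.1 and 96.0 CPM with DPBS, with no overlap. CYP1B1, an enzyme of the same family, lay at 4.14, 11.2 and 6.35 CPM against 0.107, 0.650, 0.0590 and 0.718 CPM. Its difference was 4.22 ± 0.75 on the log2 scale and missed the threshold (adjusted p = 0.0574). In DPBS 001 and 004 it was under the level of 3 counts (0.161 and 0.177 CPM), so the size of that fold is poorly set. DMSO 004 held 3.60 CPM of CYP1B1, above every DPBS library.

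Of the 8 tested genes on the receptor's list, 3 had toceranib libraries wholly above DPBS and none wholly below, and the list's median log2 fold change was 0.74. Against the DPBS mean the list's median was 1.09 in Toceranib 002, 0.0037 in Toceranib 004 and -0.02 in Toceranib 005. Other members did not separate. The gene of the receptor itself, AHR, lay at 54.6, 64.1 and 41.4 CPM with toceranib and at 61.4 to 87.4 CPM with DPBS (adjusted p = 0.258). CYP1A2 lay at 3.18 CPM in Toceranib 002 and at 0.329 and 0.423 CPM in the other toceranib libraries, against 0.166 to 0.885 CPM with DPBS. For NQO1, which NRF2 also controls, the ranges overlapped, at 138 to 199 CPM and 101.5 to 155.5 CPM.

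The sterol export list, which holds targets of the liver X receptors and the receptor genes NR1H3 and NR1H2, lay higher as a list. The pump genes ABCA1 and ABCG1 were not among its called members. All 7 tested members had a positive log2 fold change, with a median of 1.31. Against the DPBS mean the list's median was 1.34 in Toceranib 002, 0.72 in Toceranib 004 and 0.75 in Toceranib 005. Of the 7, 5 (71.4%) had toceranib libraries wholly above DPBS, and 2 were called. MYLIP, whose product limits the uptake of cholesterol, rose by 1.38 ± 0.19 (adjusted p = 0.0464). It lay at 30.3, 33.9 and 20.65 CPM with toceranib and at 11.3, 11.9, 10.6 and 9.72 CPM with DPBS. The phospholipid remodelling enzyme gene LPCAT3 rose by 0.83 ± 0.11 (adjusted p = 0.0464), with 146, 119 and 118 CPM against 68.9, 73.0, 72.9 and 72.0 CPM. In both genes the lowest toceranib library was well above the highest DPBS library, and DMSO lay below toceranib, at 10.99 to 15.9 CPM for MYLIP and 77.2 to 94.4 CPM for LPCAT3.

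NR1H3, which encodes the alpha form of the receptor, lay at 5.10, 7.57 and 4.49 CPM against 1.60 to 1.89 CPM, a difference of 1.74 ± 0.26 (adjusted p = 0.0521). NR1H2, the gene of the beta form, overlapped between the groups, at 32.5 to 41.4 and 29.8 to 33.4 CPM. The cholesterol pump gene ABCA1 was uneven over lines. It lay at 30.1 CPM in Toceranib 002 but at 9.82 CPM in both Toceranib 004 and 005, against 6.42 to 8.26 CPM with DPBS (adjusted p = 0.205). The lipoprotein gene APOE lay at 3.84 to 5.28 CPM against 1.38 to 3.01 CPM (adjusted p = 0.107). ABCG1, a further pump gene, overlapped, because Toceranib 004 held 1.15 CPM, under the 2.42 CPM of DPBS 004.

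Genes of sterol synthesis were also higher on balance, by smaller amounts. Of 24 tested, 11 (45.8%) had toceranib libraries wholly above DPBS, none wholly below, and the median log2 fold change was 0.36. EBP, a sterol isomerase late in the pathway, was the 1 called member, and rose by 0.96 ± 0.11 (adjusted p = 0.0353). It lay at 244, 235.5 and 198 CPM with toceranib, 117.1, 117.0, 123 and 108.5 CPM with DPBS and 145, 120 and 97.02 CPM with DMSO. FDPS, which makes farnesyl diphosphate, differed by 0.49 ± 0.13 (adjusted p = 0.109).

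The sterol reductase gene TM7SF2 lay at 217, 121 and 139 CPM in Toceranib 002, 004 and 005, against 86.05 to 111.5 CPM with DPBS (adjusted p = 0.131). INSIG1, a brake on SREBP, lay at 276, 266 and 212 CPM against 166.6 to 209.0 CPM. Of 19 tested fatty acid synthesis genes 5 lay wholly above and 1 wholly below, with a median of 0.33 and none called. Without Toceranib 004 or without Toceranib 005, 9 (47.4%) lay wholly above, beside 13.6% and 12.6% of all tested genes. Without Toceranib 002 it was 5 (26.3%), beside 18.6%. The synthase gene FASN lay at 1270, 989 and 931.5 CPM against 677 to 766 CPM (adjusted p = 0.121). SREBF1, the gene of the SREBP that drives this list, lay at 204 to 301 CPM against 148 to 174 CPM (adjusted p = 0.102).

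**Figure D3:**
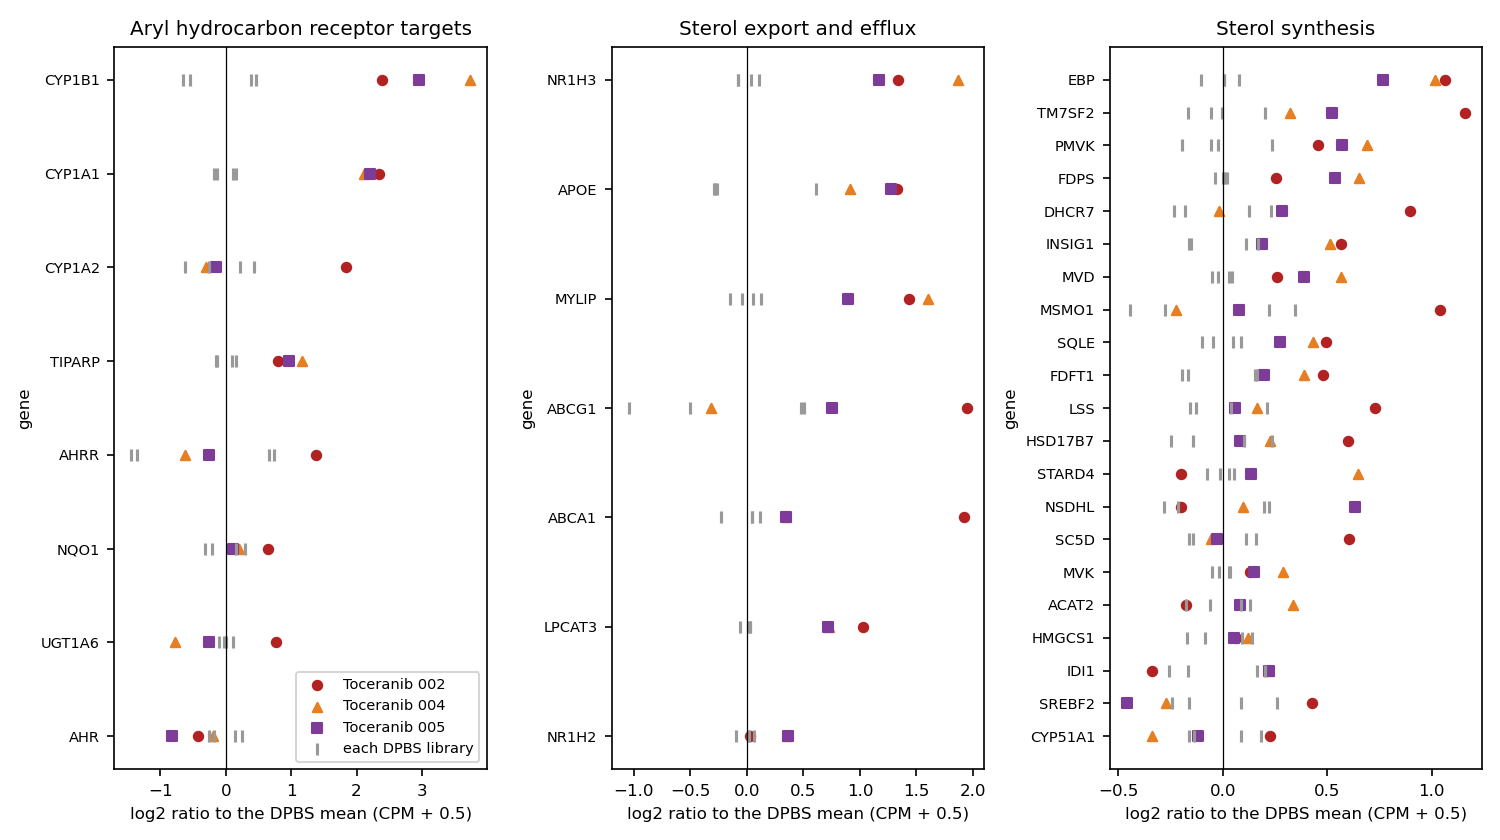
Log2 ratio of each toceranib library to the mean of the 4 DPBS libraries, on CPM + 0.5, for 8 genes of the aryl hydrocarbon receptor list, 7 of sterol export and 21 of sterol synthesis; grey ticks are the single DPBS libraries. CYP1A1, TIPARP, MYLIP, LPCAT3 and EBP are the 5 called genes; for ABCA1 and TM7SF2 the Toceranib 002 point stands far from the other toceranib points.

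The other genes called higher belong to no common list. SNAI1, a repressor of E-cadherin, rose by 1.24 ± 0.14 (adjusted p = 0.0353), with 14.2, 15.1 and 16.5 CPM against 6.69, 6.26, 6.55 and 6.41 CPM. DMSO 004 held 20.9 CPM, more than any toceranib library, while DMSO 002 and 005 held 5.32 and 7.24 CPM. The E-cadherin gene CDH1 overlapped, at 1621 to 2919 CPM and 1719 to 2434 CPM. PAQR6, of the membrane progesterone receptor family, rose by 1.02 ± 0.14 to 25.4 to 31.2 CPM, from 12.4 to 15.3 CPM. SPACA6, known from sperm and egg fusion, rose by 1.01 ± 0.14. ILVBL, an enzyme gene of the endoplasmic reticulum, rose by 0.89 ± 0.12 to 111 to 144 CPM, from 62.95 to 72.9 CPM. LOC119872471, which has no gene name, rose by 1.16 ± 0.14. DMSO lay below toceranib for these last 4, with at most 10.98, 12.4, 86.1 and 19.4 CPM.

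Among genes called lower, several had DMSO levels like those of toceranib, so that DPBS alone stood high. HUWE1 fell by 1.75 ± 0.21 on the log2 scale (adjusted p = 0.0353), with 8.17, 4.61 and 7.53 CPM against 21.9 to 23.5 CPM, and DMSO lay at 4.60 to 8.56 CPM. ZBED6, a transcriptional repressor gene that lies inside an intron of another gene in mammals, fell by 1.41 ± 0.17. It had 9.05 to 10.2 CPM against 19.4 to 27.9 CPM, with DMSO at 3.88 to 9.74 CPM. The dystrophin relative UTRN fell by 1.36 ± 0.17, with 160, 103 and 112.5 CPM against 311.0 to 329 CPM, and DMSO lay at 117 to 178 CPM. For these 3 genes the toceranib and DMSO ranges overlapped.

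For a second set, every DMSO library lay above every toceranib library. MET, the receptor of hepatocyte growth factor, fell by 1.28 ± 0.15 (adjusted p = 0.0353). It lay at 85.9, 58.7 and 71.9 CPM with toceranib, at 180.7, 161.8, 178.8 and 180.4 CPM with DPBS and at 94.7, 155 and 160.6 CPM with DMSO. IDS, a lysosomal sulfatase, fell by 1.25 ± 0.16, with 17.4, 13.05 and 18.6 CPM against 35.45 to 43.2 CPM, and DMSO lay at 37.9 to 82.9 CPM. SEC24D, of the coat that carries proteins out of the endoplasmic reticulum, fell by 0.89 ± 0.11, with 40.1 to 44.9 CPM against 74.95 to 86.99 CPM, and DMSO lay at 60.7 to 91.1 CPM. The translation release factor ETF1 fell by 0.90 ± 0.10, with 30.3 to 33.35 CPM against 55.7 to 62.5 CPM. The centrosome gene CEP350 fell by 0.94 ± 0.10, with 36.9 to 38.25 CPM against 67.5 to 77.55 CPM. In ETF1 and CEP350 the 3 toceranib libraries lay within a few CPM of each other.

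EIF2AK2, the kinase that senses double-stranded RNA, fell by 1.34 ± 0.14, with 7.69, 7.51 and 8.89 CPM against 19.1 to 21.65 CPM. Its DMSO levels were 6.03, 32.4 and 20.7 CPM, so DMSO was low in line 002 and high in line 004. UBA6, a ubiquitin-activating enzyme, fell by 1.04 ± 0.11, with 26.1, 26.4 and 25.7 CPM against 48.5 to 57.9 CPM, and DMSO again was low in line 002 (22.0 CPM) and higher in the other lines (62.1 and 50.8 CPM). QKI fell by 1.44 ± 0.16, to 5.98 to 6.785 CPM from 14.5 to 19.8 CPM, with DMSO between the groups at 9.08 to 13.2 CPM. FAM172A fell by 1.43 ± 0.16, to 6.42 to 7.36 CPM from 16.9 to 21.4 CPM. Smaller falls were called for the lipid flippase gene ATP11B (-0.86), the purine synthesis gene PPAT (-0.85), the phosphatase gene PTPN13 (-0.78) and LOC102153843 (-0.98).

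**Figure D4:**
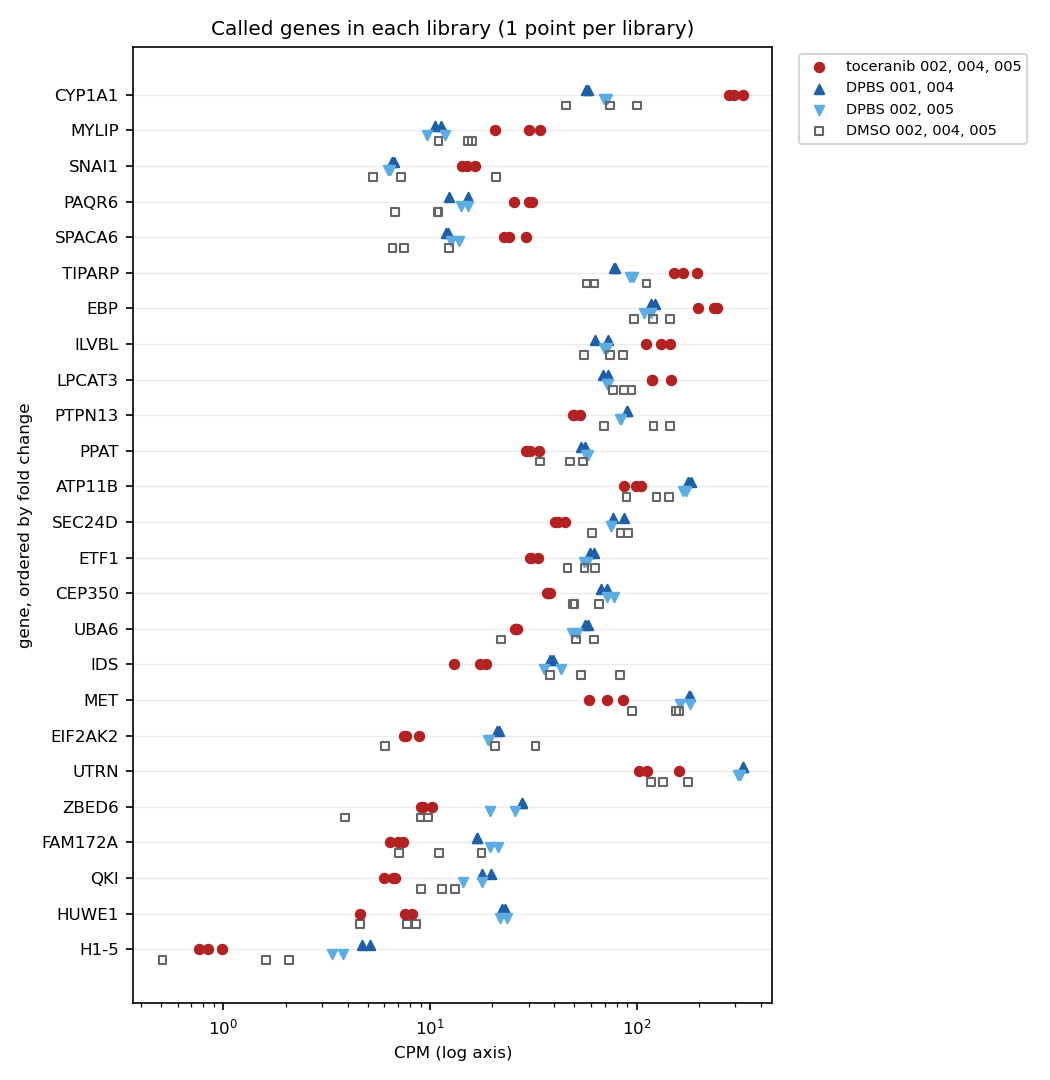
CPM (log axis) of 25 called genes that have a gene name, 1 point per library: toceranib as red circles, DPBS as blue triangles in their close pairs, and DMSO of lines 002, 004 and 005 as open squares. Red and blue do not overlap in any of these genes; the squares lie with toceranib for HUWE1, ZBED6 and UTRN and above toceranib for MET, IDS and SEC24D.

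Of 9 listed kinases that toceranib is known to inhibit, 3 reached 5 CPM in any library. The other 6 lay at 0.650 CPM or less and were not tested, and none of the 3 was called or separated the groups. KIT had 0 counts in all 7 libraries. KDR, the main VEGF receptor, lay at 0.480 CPM or less, PDGFRB at 0.650 or less, FLT3 at 0.236 or less, RET at 0.214 or less and CSF1R at 0.0846 or less. The VEGF receptor gene FLT1 followed the library pairs and not the drug. It lay at 33.6 CPM in Toceranib 002, 35.55 in DPBS 001 and 39.65 in DPBS 004, and at 0.603 to 5.63 CPM in the other 4 libraries. FLT4 lay at 14.75 to 33.1 CPM with toceranib and at 11.03 to 26.5 CPM with DPBS. PDGFRA lay at 2.64 to 5.98 and 1.499 to 3.49 CPM, and for neither gene was a difference detectable (adjusted p = 0.870 and 0.425).

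Of 13 tested ligand genes of these kinases, 3 lay wholly above DPBS. VEGFA was the only well-expressed one of those 3, at 108.0, 84.9 and 98.5 CPM against 61.1, 56.7, 68.4 and 58.8 CPM (0.67 ± 0.12, adjusted p = 0.0580). DMSO lay at 34.6 to 62.0 CPM. None of the 20 ERK pathway output genes was called: 3 lay wholly above, 1 wholly below, and the median was 0.20. Those wholly above were 5 (25%), 7 (35%) and 6 (30%) without Toceranib 002, 004 and 005. Beside these stood 18.6%, 13.6% and 12.6% of all tested genes. The feedback phosphatase DUSP6 overlapped, at 152 to 202 CPM and 154 to 169 CPM. IER3, an immediate early gene, lay at 116, 124 and 143.5 CPM against 54.2 to 86.55 CPM (adjusted p = 0.0750). SPRED2, which restrains ERK signalling, lay at 59.25 to 68.0 CPM against 80.9 to 93.8 CPM (adjusted p = 0.0855).

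Genes of DNA replication and mitosis leaned lower, and none was called. In the G1/S list 42 of 44 tested genes had a negative log2 fold change (median -0.31), and 15 (34.1%) lay wholly below DPBS against none above. In the G2/M list 46 of 50 were negative (median -0.39), with 9 (18.0%) wholly below and 1 above. Without Toceranib 002 the members wholly below were 24 (54.5%) of G1/S and 27 (54.0%) of G2/M, beside 18.8% of all tested genes. Without Toceranib 004 they were 21 (47.7%) and 13 (26.0%), beside 14.1%. Without Toceranib 005 they were 18 (40.9%) and 9 (18.0%), beside 12.2%. The replication helicase gene MCM4 lay at 103, 103.5 and 87.9 CPM against 169, 152, 164 and 161 CPM (-0.72 ± 0.11, adjusted p = 0.0521). MCM10, which helps start replication, lay at 26.3 to 30.0 CPM against 43.7 to 49.9 CPM (adjusted p = 0.0521). CDK1, the kinase that drives entry into mitosis, lay at 57.2, 58.5 and 53.75 CPM against 77.9 to 85.2 CPM (adjusted p = 0.0532). ANLN, which builds the cleavage furrow, lay at 122 to 155 CPM against 228 to 269.8 CPM (adjusted p = 0.0524). DMSO lay at 129 to 199 CPM for MCM4, above every toceranib library. For MCM10, CDK1 and ANLN it lay at 23.4 to 54.1, 55.6 to 77.3 and 112 to 204 CPM, and overlapped toceranib.

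The proliferation marker MKI67 differed between the DPBS pairs, and its toceranib and DPBS ranges overlapped (edgeR adjusted p = 0.233). It lay at 312, 191 and 164 CPM in Toceranib 002, 004 and 005, at 438.0 and 437.8 CPM in DPBS 001 and 004, and at 281 and 297 CPM in DPBS 002 and 005. The per-library median of the G2/M list against the DPBS mean was -0.17 in Toceranib 002, -0.43 in Toceranib 004 and -0.75 in Toceranib 005. With Toceranib of KU-cHCC-001 added, MCM5 of the G1/S list, at -0.52 with 3 toceranib libraries, stood at 0.02.

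Among histone genes, those for the H1 linker lay low with toceranib. H1-5 was the called member of the 13 tested histone genes, and fell by 2.28 ± 0.29 (adjusted p = 0.0365). It lay at 0.841, 0.987 and 0.762 CPM against 5.14, 3.78, 4.66 and 3.37 CPM, with DMSO at 0.507 to 2.08 CPM. H1-2, H1-3 and H1-4 also lay wholly below DPBS, at -0.97, -1.35 and -1.64 (adjusted p = 0.0651, 0.142 and 0.0931), while no other tested histone gene separated. These 4 genes make up the 30.8% of the list that lay below. Near-identical histone copies share reads, so these counts are uncertain.

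In the list of protein folding in the endoplasmic reticulum, 17 of 25 tested genes had a positive log2 fold change and 8 a negative one. Of the 25, 10 (40.0%) lay wholly above DPBS and 1, SEC24D, below, with a median of 0.26. HSPA5, the main chaperone, lay at 1628, 1123 and 1104 CPM against 933 to 1041 CPM (adjusted p = 0.321). SDF2L1 lay at 67.2 to 88.1 CPM against 38.9 to 58.0 CPM (adjusted p = 0.109). HERPUD1, which helps clear misfolded proteins, lay at 88.3 to 99.25 CPM against 63.3 to 73.5 CPM (adjusted p = 0.0956). In the integrated stress response list, 5 of 37 (13.5%) lay wholly above and 3 (8.11%) below, with none called. ATF3, a stress-induced factor, was at 115, 88.7 and 144 CPM against 40.3 to 86.3 CPM (adjusted p = 0.149), while ATF4, the factor that drives this list, overlapped. Without Toceranib 002, 16 (43.2%) of this list lay wholly above, beside 18.6% of all tested genes. Without Toceranib 004 or 005 it was 7 (18.9%) or 6 (16.2%), beside 13.6% and 12.6%. The cystine carrier gene SLC7A11 lay at 1.81 to 2.03 CPM against 2.66 to 6.31 CPM (-1.24 ± 0.35, adjusted p = 0.128).

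Other lists held genes that separated without a call. HES1, a Notch target, lay at 253, 205 and 218.5 CPM against 103 to 147 CPM (adjusted p = 0.0580). CLDN7, a tight junction claudin, lay at 654, 742 and 603.5 CPM against 363.5 to 441 CPM (adjusted p = 0.0524), while TJP1, a junction scaffold, lay lower by 0.57 ± 0.13 (adjusted p = 0.0939). The lysosomal membrane gene CD63 lay at 1112 to 1153 CPM against 571 to 798.5 CPM (adjusted p = 0.0725). The transferrin receptor gene TFRC, which brings iron into cells, lay at 57.8, 23.9 and 22.3 CPM against 97.4 to 105.3 CPM (-1.55 ± 0.33, adjusted p = 0.0765). DMSO lay at 20.85 to 66.5 CPM for TFRC, again like toceranib.

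Of 17 tested matrix protease and inhibitor genes, 5 (29.4%) lay wholly below DPBS. The collagenase gene MMP13 lay at 49.3, 39.9 and 14.6 CPM against 188, 78.3, 189.6 and 87.5 CPM (-1.97 ± 0.50, adjusted p = 0.107). PLAU, the urokinase gene, lay at 66.2 to 127 CPM against 128 to 239 CPM, with groups that nearly touched (adjusted p = 0.145). MMP14 and the collagen cross-linker LOX lay at -0.67 and -1.38 (adjusted p = 0.100 and 0.163). Both signs turned when Toceranib of KU-cHCC-001 was added, to 1.00 and 1.02. Of 24 tested apoptosis regulators, 6 (25.0%) lay below and 2 above. The initiator caspase gene CASP8 was at 4.23 to 9.07 CPM against 12.1 to 19.7 CPM (adjusted p = 0.0972), and the pore-forming BAX at 73.1 to 102 CPM against 58.2 to 59.7 CPM (adjusted p = 0.0831).

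**Figure D5:**
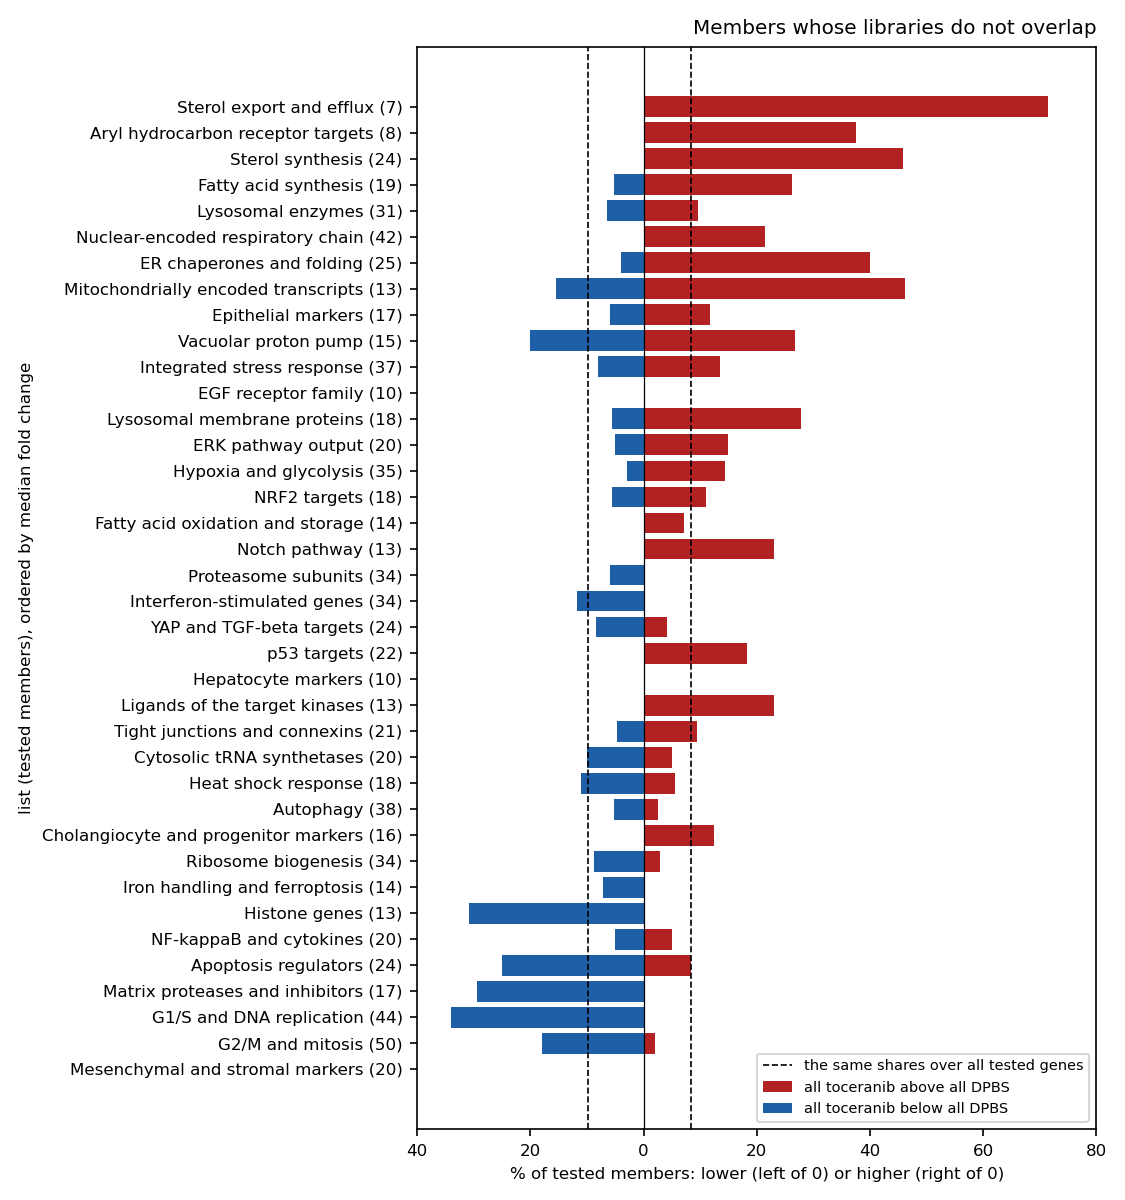
Share of the tested members of each gene list with at least 7 of them (number tested in brackets) whose 3 toceranib libraries lie wholly above (red, right) or below (blue, left) the 4 DPBS libraries, with lists ordered by median fold change. Dashed lines give the shares over all tested genes, 8.43% above and 9.85% below; sterol export reaches 71.4% above and G1/S 34.1% below.

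Mitochondrially encoded transcripts took 11.3% ± 2.32 (SD, n = 3) of all counts with toceranib and 10.6% ± 0.684 (SD, n = 4) with DPBS, a difference of 0.766 percentage points (two-sided exact permutation p = 0.629). The values were 12.1%, 8.73% and 13.2% in Toceranib 002, 004 and 005, and 9.78% to 11.15% with DPBS. Toceranib 004 held 0 counts of COX1, a transcript at 42100 and 43390 CPM in the other toceranib libraries. With COX1 left out of the mitochondrial counts but kept in the total, the shares were 8.52% ± 0.520 (SD, n = 3) and 6.999% ± 0.433 (SD, n = 4). Every toceranib library lay above every DPBS library. The total of Toceranib 004 holds no COX1, so its share has another basis than the rest. The exact permutation p for these shares was 0.0571. With 35 arrangements no smaller value can arise, and 0.05 is out of reach. In DMSO the full share was 4.12% to 5.84%, under that of both groups.

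Single mitochondrial transcripts pointed both ways. Of the 13, 6 lay wholly above DPBS, among them COX3 (16260, 22790 and 18180 CPM against 10770 to 12470 CPM) and ND3 (1315 to 1613 against 877 to 958 CPM, adjusted p = 0.0585). ND5 and ND4L lay wholly below, at -0.73 and -0.67 (adjusted p = 0.0726 and 0.108). ND5 was at 3385 to 4250 CPM against 6296 to 6634 CPM, and these differences within 1 genome-encoded set ran in opposite directions. Mitochondrial genes overlap and have nuclear copies, so their counts depend on how reads were assigned. Among nuclear genes of the respiratory chain, 39 of 42 were positive (median 0.26) and 9 (21.4%) lay wholly above, such as NDUFB9 (123, 139.5 and 137 against 86.3 to 96.5 CPM, adjusted p = 0.0580). Without Toceranib 002, 26 (61.9%) of the nuclear genes lay wholly above, beside 18.6% of all tested genes. Without Toceranib 004 or 005 it was 9 (21.4%) or 12 (28.6%), beside 13.6% and 12.6%. The list's median was -0.0042 in Toceranib 002, 0.46 in Toceranib 004 and 0.27 in Toceranib 005.

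Interferon-stimulated genes differed between the toceranib libraries themselves. The list's median log2 ratio to the DPBS mean was -0.91 in Toceranib 002, 0.84 in Toceranib 004 and -0.49 in Toceranib 005, so the overall median of 0.07 describes none of them. ISG15, an antiviral ubiquitin-like protein, lay at 2.46, 71.0 and 6.60 CPM with toceranib and at 9.05 to 27.6 CPM with DPBS. MX1, an antiviral GTPase, lay at 6.91, 52.3 and 4.99 CPM against 11.5 to 14.5 CPM. In DMSO of line 004, too, these genes were far above lines 002 and 005, at 510.5 CPM for ISG15 and 981 CPM for MX1. SAMD9L, an antiviral gene, was 1 of the 4 list members wholly below DPBS, at 116, 223 and 120 CPM against 234 to 257 CPM (adjusted p = 0.179). Without Toceranib 004, 19 (55.9%) of 34 lay wholly below, beside 14.1% of all tested genes. Without Toceranib 002 or 005 it was 4 (11.8%), beside 18.8% and 12.2%.

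Marker lists of other cell types were not called. Mesenchymal and stromal markers summed to 1966 to 4310 CPM with toceranib and 2038 to 4251 CPM with DPBS, and 0 of 20 tested members separated the groups. Endothelial markers summed to 10.3 to 56.0 and 22.1 to 53.2 CPM. Leukocyte markers summed to 64.0 to 76.8 and 44.9 to 70.5 CPM, of which CD14, also known from epithelium, made 37.7 to 71.6 CPM. Cholangiocyte and progenitor markers summed to 10560 to 12710 CPM with toceranib and 9345 to 9874 CPM with DPBS. Of the 16 tested members, however, 8 had a positive and 8 a negative log2 fold change, with a median of -0.01. Only 2 (12.5%) lay wholly above DPBS. KRT19, a biliary keratin, was at 2929, 4015 and 3465 CPM against 2470 to 2677 CPM (adjusted p = 0.184). The part of the gap in summed cholangiocyte and progenitor markers in the sterol, cycle and histone lists was not tested.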

How the data were processed

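The deposited tables hold whole-number read counts, 1 per gene entry and library, which the authors did not normalize. TopHat is the tool named per the submitters' processing notes, and libraries came from a directional kit per the labels' protocols. Not given in the sources used here are the aligner's version, the counter, its strand setting, and the genome build with its annotation. Counts of overlapping or near-identical genes are therefore uncertain, and coordinates were not used. Each table held 39954 entries, and 500 entries that shared 89 symbols were summed, which gave 39543 symbols.

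Counts of the 7 libraries were tested with edgeR 4.0.16 in R 4.3.3 (filterByExpr, TMM scaling, robust quasi-likelihood fit of treatment, 5 residual degrees of freedom). Benjamini-Hochberg adjustment ran over all 14860 genes, with calls under 0.05. The code was tested on simulated counts that held no close library pairs and no line differences. Error rates in the present design were therefore not tested. CPM are counts over TMM library sizes, set together with DMSO of lines 002, 004 and 005, which entered no test. Those DMSO levels stand beside the same toceranib libraries that are set against DPBS. Close DPBS libraries differed by more than sampling noise (median ratios 2.22 and 2.11), so each was kept as a library. Every other pair of the 7 had a ratio from 8.55 to 30.4. Members of a close pair may therefore not be independent, and SE and p-values that count 4 DPBS libraries may be too small. Nothing says that libraries are separate cultures of a line, so p-values measure the spread between these libraries, which may be partly technical. Reads had no molecular identifiers, so limits from counts cover counting error only.

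Labels give toceranib and DPBS the same line numbers. Deviations from the group means correlated across genes at -0.66 (002), -0.02 (004) and 0.75 (005) for same-numbered libraries, so the numbers did not pair them and the line was not a block.

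Members and the 42 gene lists were chosen with earlier results of these data known. Text names the 12 largest called increases and decreases with a mean of 5 CPM or more, no overlap and a gene name, and up to 5 called members of each list. The other genes were named after their values were seen. Alternatives were another scaling, DESeq2 1.42.0, no filter, the block, other sets of libraries and leaving out each library. Sorafenib libraries entered 1 alternative only. Some genes are not reported here.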

Additional observations from a re-analysis of the deposited data

Results flagged for a closer look

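In 2 of 30 groups examined, 1 DPBS library stood apart from the other 3 by Dixon's criterion, a number near the 1 in 20 that chance gives. MET lay at 161.8 CPM in DPBS 002 against 178.8 to 180.7 CPM in the other DPBS libraries, which is still far above the 85.9 CPM of the highest toceranib library. SEC24D lay at 86.99 CPM in DPBS 001 against 74.95 to 76.5 CPM in the others.

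LOC119877774, a symbol with no gene name that is absent from the RefSeq table used for names, took 2.10% of all counts in Toceranib 002 and 4.25% in Toceranib 004. It had 0 counts in Toceranib 005 and in all 4 DPBS libraries. It was present in the DMSO libraries of lines 002, 004 and 005, at 3.375%, 2.225% and 4.97%, and in Toceranib 001 at 3.41%.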

How the results depend on the processing

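Of 46 alternative values for the counts of called genes and the mitochondrial share, 12 stayed close to the reported value. Against 10 genes higher and 18 lower, edgeR with DESeq2 size factors gave 19 and 35, DESeq2's Wald test 481 and 715, and no filter on low counts 27 and 60. Each of these held all 28 genes. The replicate block by labelled line gave 0 and 0 (630 and 809 genes at an unadjusted p under 0.05), and the smallest adjusted p was 0.345. Summed DPBS pairs gave 0 and 0 (477 and 583 unadjusted), DPBS 002 and 005 alone 0 and 0 (1018 and 765), DPBS 001 and 004 alone 0 and 0 (1708 and 1446), and 13 libraries sharing the spread 0 and 0 (935 and 1005). DESeq2 was not run in these settings. Adding Toceranib of KU-cHCC-001 gave 1 and 0. Leaving out 1 library gave 1 to 99 higher and 0 to 165 lower. Toceranib 005 alone against DPBS, chosen after seeing the data, gave 1 higher (LOC119870175) and 2 lower (LOC119877776 and TFRC). There the lone library is assumed to vary like DPBS.

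Of single genes, 3 turned direction, each with Toceranib of KU-cHCC-001 added: MCM5 (0.0163), MMP14 (1.00) and LOX (1.02). The cause was not tested. Besides CYP1A1, the other 27 called genes were called in 4 of 17 alternatives. No scaling moved the median of all genes by 0.1. The difference in mitochondrial share ran from -0.152 to 2.07 percentage points without single libraries and was -0.63 with Toceranib of KU-cHCC-001. With COX1 left out of the mitochondrial counts and Toceranib 004 dropped, added after seeing the data, it was 1.42 points. With 3 toceranib libraries and DPBS libraries in close pairs, a gene that misses the threshold is not shown to be unaffected.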

Other observations

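Further genes also separated toceranib from DPBS without a call, and some of them, such as PHGDH, are already counted in a list above. CLDN15, a claudin that forms channels between cells, lay at 4.02, 3.78 and 3.81 CPM with toceranib against 1.18 to 2.10 CPM with DPBS (1.25 ± 0.28, edgeR adjusted p = 0.0838). G0S2, an inhibitor of fat breakdown, lay at 147, 215 and 169 CPM against 97.7 to 124 CPM (adjusted p = 0.0856). PHGDH, the first enzyme of serine synthesis, lay at 255, 483 and 261.5 CPM against 183 to 231 CPM (adjusted p = 0.184), so that Toceranib 004 stood highest.

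Lower with toceranib were WWTR1, the transcription coactivator TAZ, at 104 to 119 CPM against 142 to 183 CPM (adjusted p = 0.0856), and XIAP, an inhibitor of caspases, at 2.47 to 5.59 CPM against 6.73 to 7.385 CPM (adjusted p = 0.158). MITF, a factor for lysosome and pigment genes, lay at 2.70 to 4.74 CPM against 5.66 to 7.62 CPM (adjusted p = 0.130). AREG, a ligand of the EGF receptor, differed between the DPBS pairs and lay higher in the toceranib library closest to each pair. It lay at 88.0 CPM in Toceranib 002 beside 41.4 and 41.6 CPM in DPBS 001 and 004, and at 191.5 CPM in Toceranib 005 beside 93.0 and 85.5 CPM in DPBS 002 and 005. The groups overlapped as a whole, and Toceranib 004 held 161.6 CPM.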
